A study of Sus scrofa with 8 samples.

Results

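The transcripts followed here encode the nuclear subunits of respiratory complexes II to V in the left ventricle of pigs. A gene was taken when its symbol in the deposited table was SDHA, SDHB, SDHC, SDHD or CYC1, or began with UQCR, ATP5, COX4, COX5, COX6, COX7 or COX8, and when its normalized count (its reads divided by 1 size factor per library) reached 10 in 4 or more of the 8 libraries. Lists of 4 values run from replicate 1 to replicate 4. The rule named 40 genes, of which 39 passed the minimum, out of 11660 passing genes in all. COX7B2, a testis-type isoform, was left below it, with 0 to 17 reads per library. The mitochondrially encoded subunits COX1, COX2 and COX3 are not members. The subunit genes COX6A1, COX6B1, UQCRH, ATP5F1B and ATP5F1E, which the rule would take, have no row under those symbols and are not analysed here. By complex the members were 4 genes of complex II, 8 of complex III, 14 of complex IV and 13 of complex V.

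Left ventricular tissue was taken from 4 wild-type (WT) pigs and 4 gene-edited pigs, called mutant here, in a series that models long QT syndrome. Mutant replicates 1 to 3 carry the genotype label KCNH2 mutation. Mutant replicate 4 carries the label KCNH3 mutation, although the series is described as KCNH2 mutants against WT, so values without that library are given in the closing section. The labels state neither the allele, its zygosity and the number of founder animals, nor the age, sex, strain and litter of the pigs. Nothing says that the libraries came from separate litters or batches, so p-values cover only the spread among these 8 samples, part of which may be technical. The KCNH2 protein forms the pore of a potassium channel that helps to end the ventricular action potential.

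The ventricle makes most of its ATP by oxidative phosphorylation in densely packed mitochondria. Complex II (succinate dehydrogenase) passes electrons from the citric acid cycle to ubiquinone, and all of its subunits are nuclear encoded. Complex III hands the electrons to cytochrome c, complex IV (cytochrome c oxidase) hands them to oxygen, and complex V (ATP synthase) uses the resulting proton gradient to make ATP. Complexes III, IV and V each combine nuclear subunits with subunits encoded in the mitochondrial genome, so that their assembly draws on both genomes.

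Libraries held 15.9 to 22.4 megareads (M), but the share taken by the 13 mitochondrially encoded protein genes was 31.7% to 87.9% in WT and 15.9% to 27.5% in mutant libraries. WT replicates 3 and 4 stood apart in this respect, at 87.9% and 65.2%, which left them 2.53 M and 7.53 M reads of nuclear genes against 11.5 M to 16.2 M elsewhere. The 9 cardiomyocyte markers checked, among them MYH7, MYL2 and TNNT2, were present in all libraries. Their summed normalized counts were 530420 to 737052 in WT and 779148 to 823449 in mutant libraries, without overlap. Of the 9 markers, 6 had a positive difference, and TNNT2, TNNI3 and TNNC1 had a negative one. MYH7 by itself was at 95432 to 146085 in WT and 233493 to 305804 in mutants, so the sums do not show a rise of the markers in general. TNNI3 was at 87778 to 139399 in WT and 55847 to 88611 in mutants. WT replicate 4 had the lowest sum over the 9 markers. The same library had 1752 normalized counts of the cardiac actin gene ACTC1 against 32209 to 234540 elsewhere. Over 4 erythroid markers the sum was 17699, 31803, 29091 and 49.7 in WT and 2517 to 2993 in mutants, with all 4 genes at a negative difference. Over 4 atrial markers it was 3772 in WT replicate 4 and 7711 in mutant replicate 1 against 42262 to 210092 elsewhere. Most of that sum was MYH6, at 2001 and 7084 in these libraries and 37865 to 208471 elsewhere. MYL4 was also lowest in these libraries (434 and 95.3). NPPA was lowest in mutant replicate 1 (472) but not in WT replicate 4 (1216), and SLN was highest in both (121 and 59.3). The summed levels of the atrial, erythroid, fibroblast (6 genes), endothelial (5), smooth muscle and pericyte (6), macrophage (6), neutrophil (3), lymphocyte (5) and adipocyte (3) lists overlapped between the groups, with SLN (atrial), HBM and AHSP (erythroid), CD68 and MRC1 (macrophage), S100A8 (neutrophil), ADIPOQ, PLIN1 and CIDEC (adipocyte) and 4 lymphocyte genes at 0 in at least 1 library. Whether marker levels or mitochondrial shares had a part in the differences given here was not tested. In bulk tissue, fewer cells of a type and less RNA per cell cannot be told apart. Mutant replicates 3 and 4 were the most alike pair of libraries (Spearman's rho across genes 0.992), yet their counts were further apart than sampling alone gives (a chi-square of 12.6 per gene, and 53.4 for the next pair).

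Taken as 39 genes, the nuclear subunits of complexes II to V showed no shift in a single direction between the groups. The mutant mean log2 value was the higher one for 21 members and the lower one for 18, where 56.9% of all genes tested had a positive difference. The median log2 difference, mutant minus WT on the log2(normalized count + 1) scale, was 0.08 over the members and 0.12 over all genes, and the members spanned -0.79 to 0.83. The upper end was COX6B2, a gene close to the minimum, with 1 to 51 reads per library. The complexes had different medians, 0.73 for complex II, 0.20 for complex III, -0.28 for complex IV and 0.01 for complex V. No member passed limma with Benjamini-Hochberg adjustment over all genes (0% of all genes did), and the smallest adjusted p among members was 0.271. At an unadjusted p under 0.05 there were 2 members with a positive difference (7.06% of all genes) and 3 with a negative one (6.8% of all genes), shares near those of all genes. With edgeR 0 members passed (0% of all genes; 4 members and 14.7% of all genes at an unadjusted p under 0.05), and with DESeq2 likewise 0 (1.32% of all genes higher and 3.24% lower; 5 members and 16.4% of all genes at an unadjusted p under 0.05). With array weights in limma no member passed, and 0.789% of all genes did. The authors' deposited table calls no member either, where it calls 1.32% of all genes higher and 3.23% lower. Its smallest adjusted p among members are 0.0558 for ATP5IF1 and 0.0591 for COX7C.

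**Figure D1:**
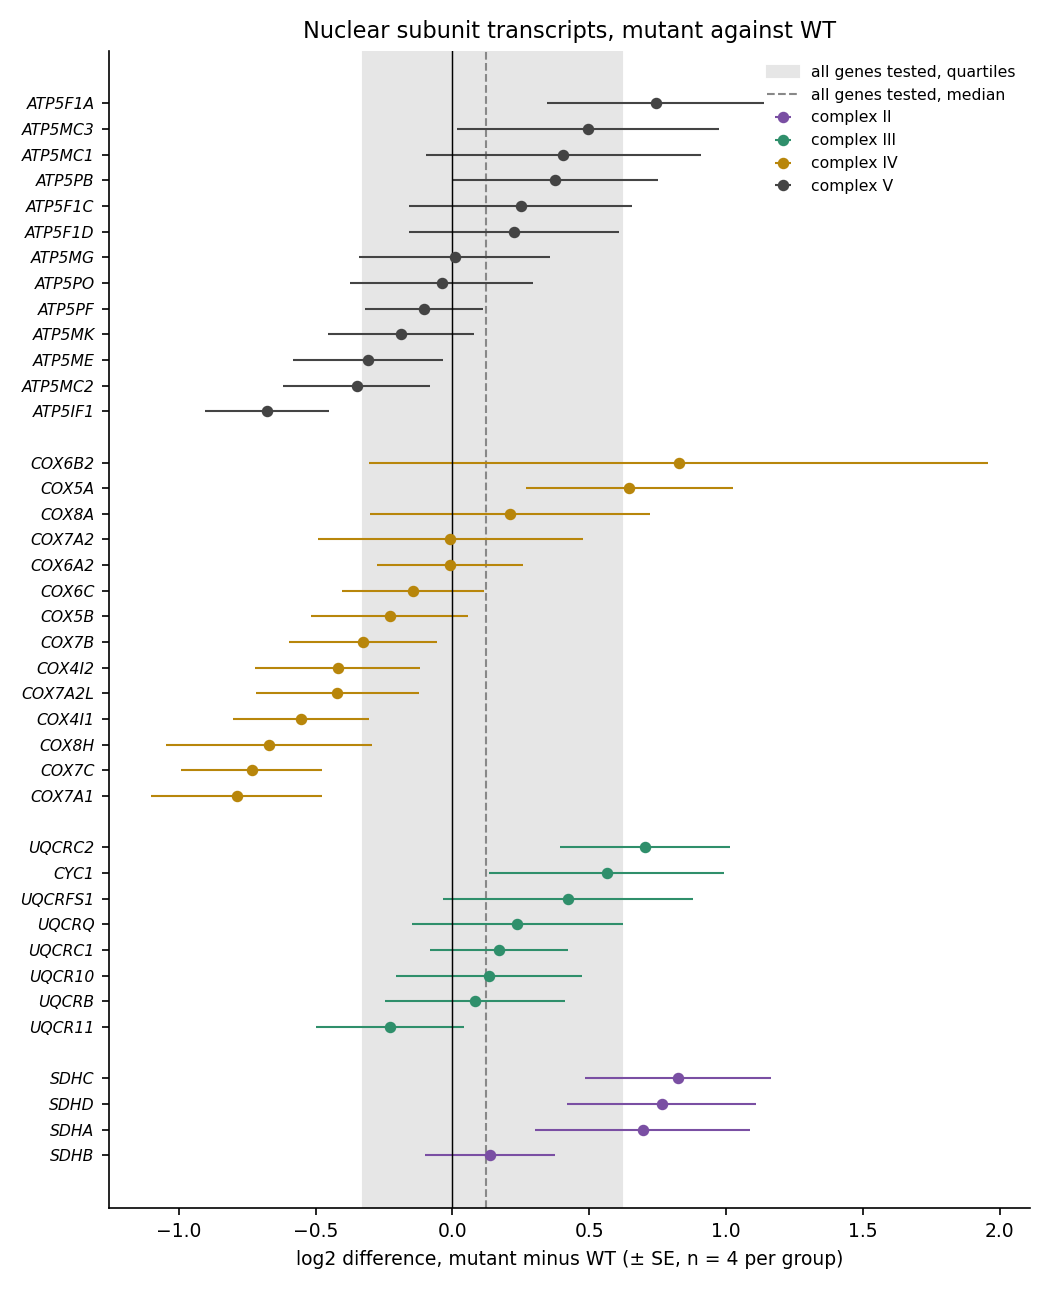
Log2 difference of each of the 39 members (mutant minus WT, horizontal axis; points are estimates, bars ± SE, n = 4 per group), grouped by complex on the vertical axis. The grey band spans the quartiles of all 11660 genes (-0.33 to 0.62) and the dashed line is their median (0.12). All 4 complex II genes lie right of 0 and 11 of 14 complex IV genes lie left of it.

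Complex II was the only complex whose genes all shared 1 sign. The mutant mean log2 value was above that of WT for all 4 (56.9% of all genes), although none passed the test. The differences ran from 0.14 to 0.82, and WT replicate 4 was the lowest of the 8 libraries for all 4 genes. Without WT replicates 3 and 4, 3 of the 4 were positive. SDHC, a membrane anchor that helps to bind ubiquinone, had 1577, 1413, 1943 and 865 normalized counts in WT and 4299, 2078, 1956 and 2111 in mutants. The mutant and WT values did not overlap, but the gap was only from 1943 to 1956, and mutant replicate 1 stood far above the other mutants. The log2 difference was 0.82 ± 0.34 (SE; limma adjusted p = 0.328), and 0.56 without mutant replicate 1. Members with all mutant values above all WT values numbered 2, SDHC and UQCRC2, against 6.17% of all genes.

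SDHD, the other membrane anchor, had 4084, 3313, 1705 and 1464 normalized counts in WT and 4613, 3757, 3988 and 4090 in mutants. WT replicates 3 and 4 were the low ones, and only WT replicate 1 reached into the mutant range. Its log2 difference was 0.77 ± 0.35 (SE; limma adjusted p = 0.363), and 0.16 without WT replicates 3 and 4. SDHA, the flavoprotein that oxidizes succinate, had 11166, 11977, 10333 and 3731 normalized counts in WT and 10289, 15794, 14754 and 14768 in mutants. WT replicate 4 was far below the other WT libraries, and mutant replicate 1 lay just below those, away from the other mutants. On the log2 scale the difference was 0.69 ± 0.39 (SE; limma adjusted p = 0.438), and 0.30 without WT replicate 4. SDHB, the iron-sulfur subunit, had 4411, 3758, 3357 and 2628 normalized counts in WT and 4359, 3971, 3658 and 3384 in mutants. Its groups overlapped almost fully, with a log2 difference of 0.14 ± 0.24 (SE; limma adjusted p = 0.795), or -0.079 with array weights.

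In complex III 7 of the 8 genes had a higher mean log2 value in mutants, none past the test, and the 3 largest differences were those of a core protein and of the subunits that carry electrons. UQCRC2, a core protein of the complex, had 5198, 4719, 4079 and 2107 normalized counts in WT and 7424, 5577, 5782 and 6201 in mutants. The groups did not overlap, with the lowest mutant library above the highest WT library. This gave a log2 difference of 0.70 ± 0.31 (SE; limma adjusted p = 0.357), and 0.33 without WT replicates 3 and 4. CYC1, the cytochrome c1 heme protein, had 13046, 8064, 7301 and 2940 normalized counts in WT and 7204, 10949, 11830 and 11569 in mutants. The highest and the lowest value of CYC1 were both in WT, and mutant replicate 1 lay below 3 of the 4 WT libraries. Its log2 difference was 0.56 ± 0.43 (SE; limma adjusted p = 0.547), and it was -0.01 without WT replicates 3 and 4.

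UQCRFS1, the Rieske iron-sulfur protein, had 10179, 8225, 9713 and 2367 normalized counts in WT and 11762, 8949, 7571 and 7801 in mutants. Apart from WT replicate 4, the groups covered a similar range, and the log2 difference of 0.42 ± 0.46 (SE; limma adjusted p = 0.670) was -0.07 without that library. The remaining core protein gene, UQCRC1, had a difference of 0.17 ± 0.25 (SE). The 4 small subunit genes had differences of 0.24 (UQCRQ), 0.13 (UQCR10), 0.08 (UQCRB) and -0.23 (UQCR11), with limma adjusted p of 0.697 to 0.917. Split by role, a grouping made after the values were seen, the 4 core and catalytic genes had a median of 0.49 and the 4 small ones a median of 0.11. Without WT replicates 3 and 4 these medians were -0.03 and -0.32.

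Complex IV went the other way, with 11 of its 14 genes at a lower mean log2 value in mutant ventricles, none of them past the test. COX4I1, the common form of the largest nuclear subunit, had 20245, 16814, 16941 and 21492 normalized counts in WT and 10291, 15655, 13647 and 12187 in mutants. All mutant values lay below all WT values. Between group means the log2 difference was -0.55 ± 0.25 (SE; limma adjusted p = 0.362). COX4I1 and ATP5IF1 were the 2 members with all mutant values below all WT values, against 5.22% of all genes. After quantile rescaling, or scaling to the total of nuclear reads, the groups overlapped for both.

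COX7C, a small membrane subunit, had 11765, 7809, 10837 and 13774 normalized counts in WT and 6263, 7870, 6367 and 5726 in mutants. Only mutant replicate 2 reached the WT range, where it passed WT replicate 2 by a small margin. The log2 difference was -0.73 ± 0.26 (SE; limma adjusted p = 0.286), and it stayed between -0.89 and -0.56 in the alternatives run. COX7A1, the heart and skeletal muscle form of subunit 7A, had 5597, 5822, 6206 and 11618 normalized counts in WT and 4183, 5626, 3491 and 3206 in mutants. WT replicate 4 was well above all other libraries, and mutant replicate 2 overlapped the remaining WT libraries. Its log2 difference was -0.79 ± 0.31 (SE; limma adjusted p = 0.318), the lowest of the members, and -0.54 without WT replicate 4.

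Over all 8 libraries the other forms of subunit 7A had smaller differences than COX7A1. COX7A2, the form made in most tissues, had 5782, 2990, 1201 and 1402 normalized counts in WT and 1542, 3151, 2419 and 2431 in mutants. The WT libraries spanned more than the full mutant range, and the log2 difference was -0.01 ± 0.48 (SE; limma adjusted p = 0.995). Its sign was positive after quantile or TMM rescaling and also after scaling to nuclear reads. COX7A2L, which joins complexes III and IV into supercomplexes rather than acting as an ordinary subunit, had 1636, 914, 2175 and 1155 normalized counts in WT and 811, 1156, 1170 and 1067 in mutants. Mutant replicate 1 was the lowest library and the groups overlapped, with a log2 difference of -0.42 ± 0.30 (SE; limma adjusted p = 0.522).

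Among the other isoform genes, COX4I2, a form of subunit 4 known from lung and from responses to low oxygen, had 303, 197, 421 and 369 normalized counts in WT and 270, 232, 263 and 175 in mutants. Its log2 difference was -0.42 ± 0.30 (SE; limma adjusted p = 0.525), with overlapping groups. COX6A2, the muscle form of subunit 6A, had 2623, 2705, 1560 and 1916 normalized counts in WT and 2470, 2599, 1929 and 1665 in mutants. These were nearly the same ranges in both groups, with a log2 difference of -0.01 ± 0.27 (SE; limma adjusted p = 0.988), whose sign was positive after quantile or TMM rescaling and also after scaling to nuclear reads. COX6B2, a testis-type form, was close to the minimum, with 4.77, 31.1, 72.7 and 1.21 normalized counts in WT and 31.2, 31.9, 17.2 and 14.6 in mutants, from 1 to 51 reads. It passed the minimum in all 4 mutant but only 2 WT libraries, and the WT libraries spanned the whole mutant range. Its log2 difference, 0.83 ± 1.13 (SE; limma adjusted p = 0.739), had the widest error of the members and a negative sign after quantile rescaling and with edgeR and DESeq2.

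COX8A, the common form of subunit 8, had 3071, 1595, 1957 and 713 normalized counts in WT and 794, 2689, 2542 and 2268 in mutants. WT replicate 4 and mutant replicate 1 were both low, and the log2 difference was 0.21 ± 0.51 (SE; limma adjusted p = 0.858), or -0.18 without WT replicate 4. COX8H, the heart and muscle form, had 1808, 2350, 2069 and 5651 normalized counts in WT and 2151, 1976, 1474 and 1236 in mutants. WT replicate 4 was far above the rest, as it was for COX7A1, and the difference of COX8H was -0.67 ± 0.38 (SE; limma adjusted p = 0.438). The other complex IV genes were COX5A, with a positive difference of 0.65 ± 0.38 (SE), and COX7B, COX5B and COX6C, with differences of -0.33, -0.23 and -0.14 (limma adjusted p of 0.448 to 0.803 for these 4). COX5A thus went against most of its complex. COX6B2 and COX8A also had positive differences, but both changed sign in some alternatives, and COX6B2 was close to the minimum.

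**Figure D2:**
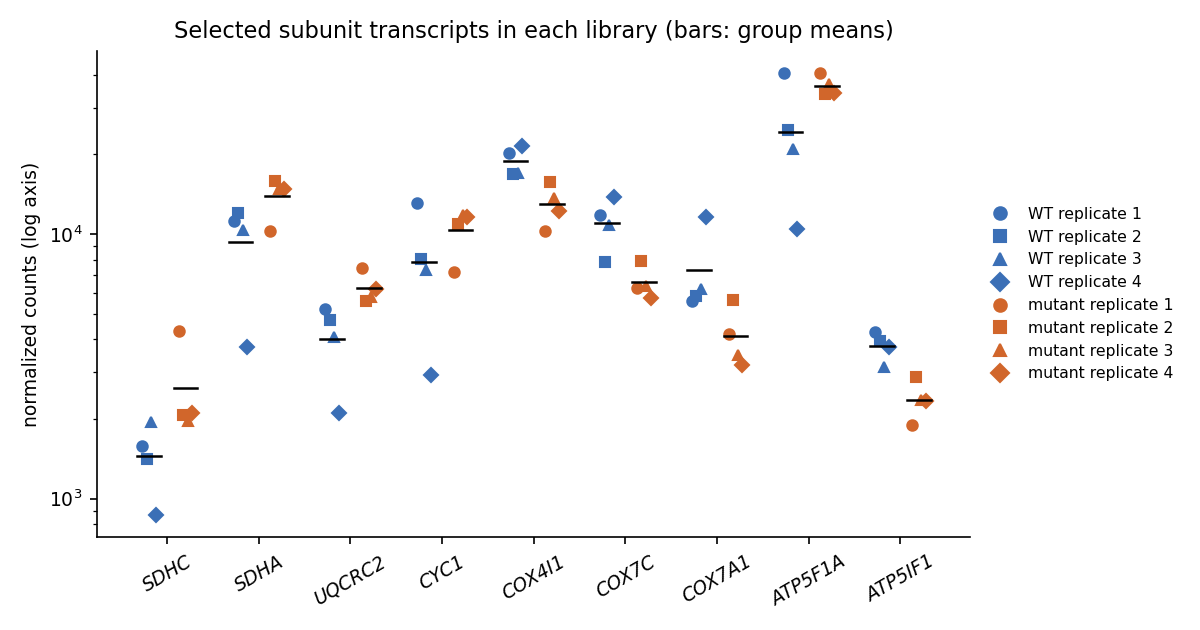
Normalized counts (log axis) of 9 members in each of the 8 libraries, WT in blue and mutant in orange, with symbols for replicates 1 to 4 and bars at the group means. SDHC and UQCRC2 lie above, and COX4I1 and ATP5IF1 below, all WT values in the 4 mutant libraries; WT replicate 4 is the lowest library for SDHA, CYC1 and ATP5F1A and the highest for COX7A1 and COX7C.

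Muscle and common isoforms of 1 subunit replace each other in the enzyme, so their ratio was compared within libraries, where scaling plays no part. The log2 ratio of COX7A1 to COX7A2 was -0.05, 0.96, 2.37 and 3.05 in WT and 1.44, 0.84, 0.53 and 0.40 in mutants. WT replicates 3 and 4 had the highest ratios and WT replicate 1 the lowest, so the mutant libraries lay within the WT range. The difference between group means was -0.78 (exact two-sided permutation p = 0.343; adjusted over 3 pairs, p = 0.643), and without WT replicates 3 and 4 it was 0.34. The smallest p that 70 assignments allow is 0.0286. The log2 ratio of COX4I2 to COX4I1 was -5.91 ± 0.45 in WT and -5.78 ± 0.40 in mutants (mean ± SD, n = 4 each; exact permutation p = 0.686, and p = 0.686 adjusted). The log2 ratio of COX8H to COX8A, a pair chosen after its values were seen, was -0.76, 0.56, 0.08 and 2.98 in WT and 1.44, -0.44, -0.79 and -0.88 in mutants. It was highest in WT replicate 4 and next highest in mutant replicate 1, and the difference between group means was -0.88 (exact permutation p = 0.429, and p = 0.643 adjusted). That difference was -0.13 without WT replicate 4 and -1.42 without mutant replicate 1.

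**Figure D3:**
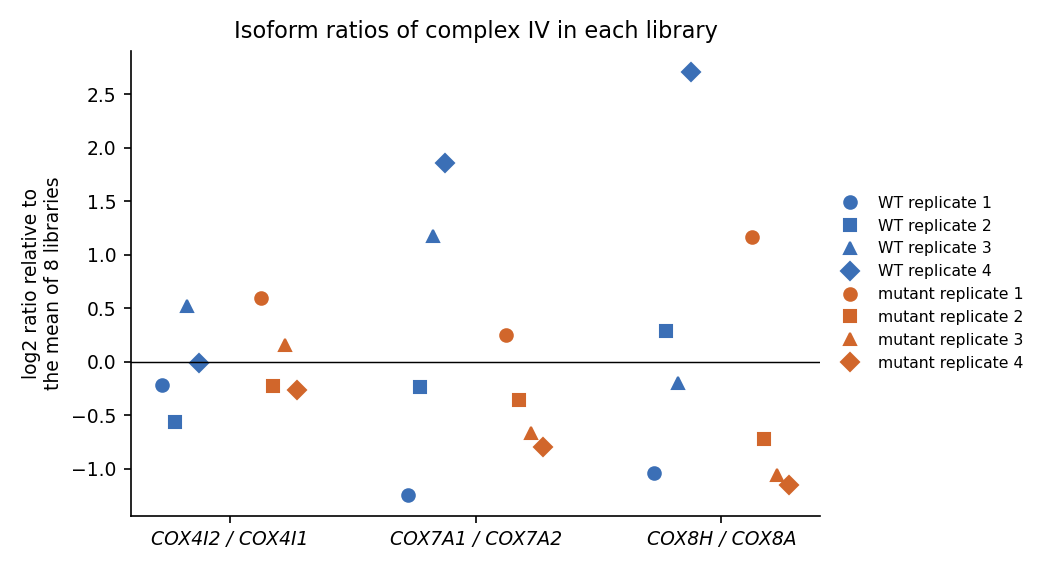
Log2 ratios of 3 isoform pairs of complex IV in each library, drawn relative to the mean of the 8 libraries (vertical axis, log2 units); WT in blue, mutant in orange, symbols for replicates 1 to 4. WT replicate 4 has the highest ratio of COX7A1 to COX7A2 (3.05 before centring) and of COX8H to COX8A (2.98).

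Complex V was divided, with 7 genes at a higher and 6 at a lower mutant mean log2 value. ATP5IF1 encodes the inhibitor that blocks ATP hydrolysis by the synthase when the proton gradient fails. It had 4250, 3945, 3130 and 3740 normalized counts in WT and 1896, 2882, 2355 and 2333 in mutants. All mutant values lay below all WT values, and WT replicate 4, low for most of the complex, lay within the range of the other WT libraries. The log2 difference was -0.68 ± 0.23 (SE), with the smallest p of the members (unadjusted p = 0.0139; limma adjusted p = 0.271), and it stayed between -0.81 and -0.58 in the alternatives run. ATP5IF1 was also 1 of only 3 members whose log2 spread was larger in mutant than in WT libraries.

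The F1 head and its central stalk, which carry catalysis, had positive differences for all 3 genes measured, but leaving out WT replicate 4 gave them a median of -0.043, and with WT replicate 3 left out too only 1 of the 3 was positive. ATP5F1A, the alpha subunit, had 40603, 24648, 20996 and 10448 normalized counts in WT and 40413, 33856, 36970 and 34034 in mutants. WT replicate 1 reached the level of the mutants, while the other WT libraries lay below them all. The log2 difference was 0.74 ± 0.40 (SE; limma adjusted p = 0.420), or 0.39 without WT replicate 4, and 0.20 when WT replicate 3 was left out too. The central stalk genes ATP5F1C (gamma) and ATP5F1D (delta) had differences of 0.25 ± 0.41 and 0.22 ± 0.38 (SE).

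The ring of c subunits turns with the proton flow, and 3 genes encode precursors of the same mature c protein. ATP5MC1 had 17240, 8269, 7073 and 2849 normalized counts in WT and 6015, 11275, 12142 and 10727 in mutants. ATP5MC3 had 16455, 9266, 10522 and 2951 in WT and 8664, 13524, 12822 and 12494 in mutants. Both genes had WT replicate 1 highest and WT replicate 4 lowest, and mutant replicate 1 lowest among the mutants. Their log2 differences were 0.41 ± 0.50 and 0.50 ± 0.48 (SE; limma adjusted p = 0.711 and 0.632), and -0.049 and -0.00021 without WT replicate 4. ATP5MC2 had 3873, 4611, 4801 and 2448 in WT and 2904, 3576, 2848 and 2687 in mutants, a log2 difference of -0.35 ± 0.27 (SE; limma adjusted p = 0.549). It was thus the c subunit gene with the opposite sign, and WT replicate 4 was again its lowest library.

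The peripheral stalk holds the head still, and its genes ATP5PB, ATP5PO and ATP5PF had differences of 0.38, -0.04 and -0.10. The small membrane subunit genes ATP5MG, ATP5MK and ATP5ME, which shape the dimer and its attachment, had differences of 0.01, -0.19 and -0.31. All of these had overlapping groups and limma adjusted p of 0.602 to 0.991. ATP5PF was the steadiest member among the mutants, with 3021 to 3195 normalized counts in mutant libraries against 2884 to 4022 in WT. Reads of processed pseudogenes, which many of these small genes have, may be counted with a member, since the counting method is not given in the sources used here.

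**Figure D4:**
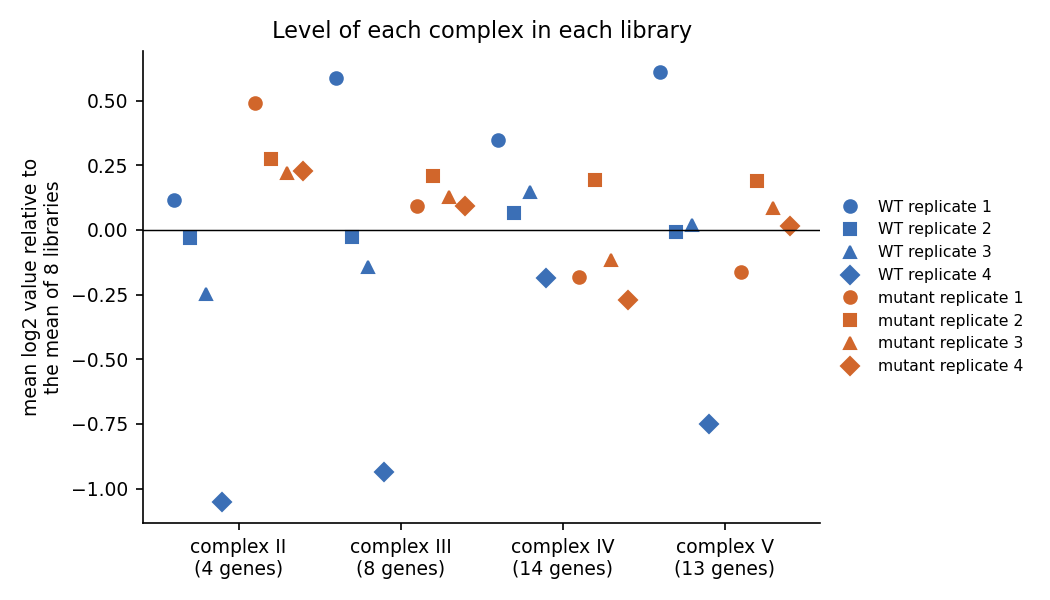
Mean log2 value of the genes of each complex relative to the mean of the 8 libraries (vertical axis, log2 units), for complexes II (4 genes), III (8), IV (14) and V (13); WT in blue, mutant in orange, symbols for replicates 1 to 4. WT replicate 4 is lowest for complexes II (-1.05), III (-0.94) and V (-0.75) but not for complex IV (-0.19).

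The WT libraries differed widely among themselves in the levels of the members. WT replicate 1 was the highest of the 8 libraries for 25 of the 39 members, against 11.9% of all genes tested. WT replicate 4 was the lowest for 23 members, against 20.1% of all genes. These 23 were all 4 genes of complex II, 7 of 8 in complex III and 9 of 13 in complex V, but 3 of 14 in complex IV. In complex IV the same library was the highest of all for COX4I1, COX7A1, COX7C and COX8H, the only members for which it was. The log2 spread was larger in WT than in mutant libraries for 36 of the 39 members, where 84.3% of all genes showed the same, and its median was 0.66 in WT and 0.24 in mutant libraries. WT replicate 4 is also the library with the second highest mitochondrial share and the lowest cardiomyocyte marker sum. The markers were divided there. ACTC1, MYL3, MYBPC3 and PLN were at their lowest of all libraries, and TNNI3 (139399 normalized counts) and TNNC1 (60545) at their highest. The part of the mitochondrial share or of the marker levels in the subunit levels was not tested. WT replicate 3, with the highest mitochondrial share, lay near the middle for the members, with a mean log2 level of 0.01 against 0.46 in WT replicate 1 and -0.62 in WT replicate 4.

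Mutant libraries were closer to each other, and mutant replicate 1 was the one that departed most. It was the highest of the 8 libraries for SDHC, SDHD, UQCRC2 and UQCRFS1 and the lowest for COX4I1, COX5B, COX7A2L and ATP5IF1. In complex II the mean log2 levels were 0.12, -0.03, -0.25 and -1.05 in WT and 0.49, 0.27, 0.22 and 0.23 in mutants, so the groups did not overlap. In complexes III, IV and V they did. All members together took 3.14%, 2.24%, 1.73% and 1.71% of the reads of nuclear genes in WT and 2.25%, 2.68%, 2.48% and 2.40% in mutants (Wilson 95% intervals reached at most from 1.72% to 1.75%, in WT replicate 3, and cover counting error only).

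Whether the subunit genes as a group lay above or below WT depended on the method and on WT replicate 4. With all 8 libraries kept, array weights gave a median of -0.08 (0.06 over all genes) and 16 members above 0. The median was -0.02 with edgeR and -0.03 with DESeq2, where that of all genes was also -0.02 and -0.03. Without WT replicate 4, 10 of the 39 members had a positive difference in place of 21, against 56.8% of all genes, and the median was -0.16. All mutant values were then above WT for 2 members and below for 4 (10.1% and 8.07% of all genes). Without WT replicates 3 and 4 together 7 members had a positive difference, against 51.3% of all genes, and the median was -0.27 where that of all genes was 0.02. The medians of complexes II to V were then 0.20, -0.18, -0.34 and -0.28. Members with all mutant values below all WT values numbered 5 in that setting, against 13.9% of all genes, and those with all above numbered 2, against 15.3%. Without WT replicate 1, in contrast, 25 members had a positive difference (57.5% of all genes), 8 had all mutant values above WT and 3 all below (11.1% and 9.35% of all genes), and the median was 0.31. Complex II kept a positive and complex IV a negative median in every alternative run, from 0.20 to 0.86 and from -0.42 to -0.06.

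**Figure D5:**
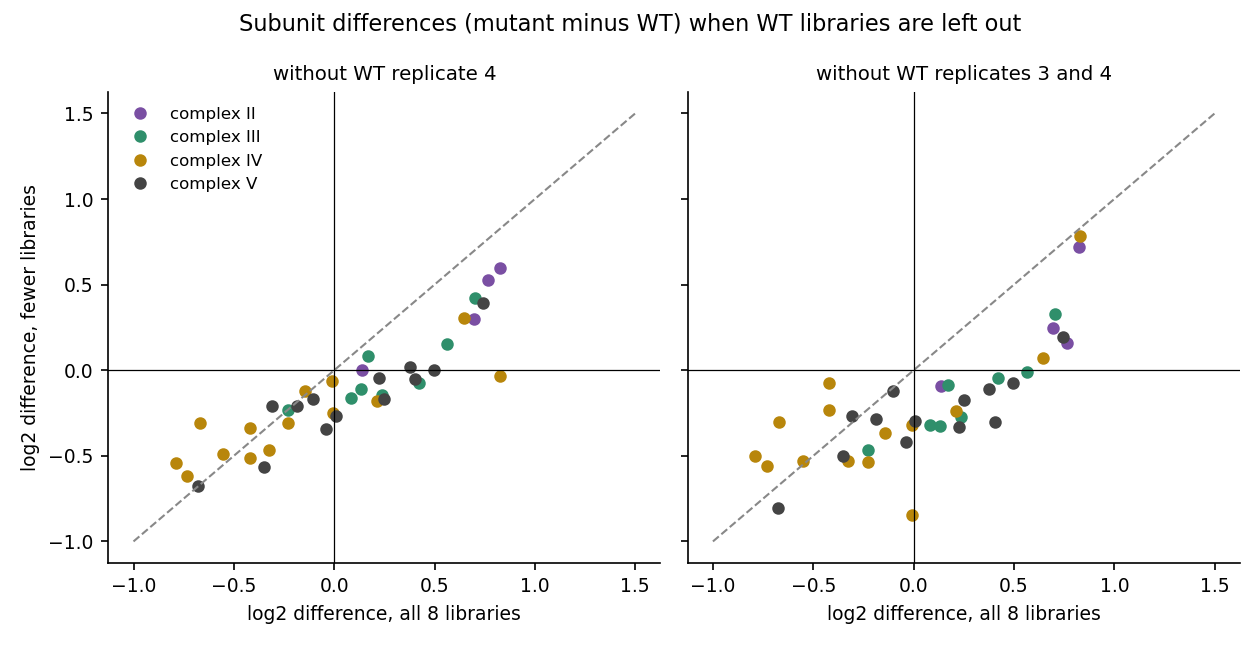
Log2 differences (mutant minus WT) of the 39 members from all 8 libraries (horizontal axis) against those without WT replicate 4 (left) or without WT replicates 3 and 4 (right), coloured by complex; the dashed line marks equal values. On the vertical axes 10 and 7 members lie above 0, against 21 on the horizontal axis.

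The transcripts that the mitochondrial genome supplies to the same complexes were set against the nuclear ones within each library. For each read of the nuclear complex IV genes there were 33.9, 41.5, 690 and 122 reads of COX1, COX2 and COX3 in WT and 39.6, 19.97, 19.99 and 19.91 in mutants. WT replicates 3 and 4 had the highest ratios, mutant replicate 1 was at the level of WT replicates 1 and 2, and the group ranges overlapped. For complex V the corresponding numbers, over ATP6 and ATP8, were 5.15, 7.15, 151 and 53.9 in WT and 4.71, 2.81, 2.33 and 2.20 in mutants. For complex V the groups did not overlap, with a gap from 4.71 to 5.15, while for complex IV only mutant replicates 2 to 4 lay below all WT libraries. The share of all 13 mitochondrially encoded protein genes did not overlap between the groups either (31.7% to 87.9% in WT and 15.9% to 27.5% in mutants). ATP8 by itself had 35710, 24417, 7993 and 1883 normalized counts in WT and 152 to 229 in mutants, a pattern that the sum with ATP6 does not show. For complex III, over CYTB, the numbers were 4.03, 7.19, 136 and 47.0 in WT and 5.36, 3.32, 2.76 and 2.55 in mutants, with overlap.

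Genes that help to build or supply these complexes were read from 5 lists, of whose 54 genes 46 passed the minimum. The mutant mean log2 value was higher for 31 (56.9% of all genes) and lower for 15, with a median log2 difference of 0.29, and none passed limma (0% of all genes). At an unadjusted p under 0.05 there were 7 with a positive and 2 with a negative difference, against 7.06% and 6.8% of all genes. Of 24 complex IV assembly genes, 14 had a positive difference, and 6 had all mutant values above all WT values (6.17% of all genes). Those 6 were COX10 and COX15, which make the heme A of the enzyme, COX11, which delivers copper, COX18, which inserts COX2 into the membrane, the translational activator TACO1 of COX1, and PET117. COX18 is at 0 in WT replicate 3. The gap was only from 45.78 to 45.82 for PET117, from 74.29 to 75.17 for COX11 and from 650.8 to 656.1 for COX15. COX10 had 201, 169, 72.7 and 95.8 normalized counts in WT and 282, 287, 400 and 454 in mutants, a log2 difference of 1.48 ± 0.37 (SE; limma adjusted p = 0.217). All 4 mutant values lay above the highest WT value. COX15 and TACO1 had differences of 0.87 ± 0.28 and 0.98 ± 0.28 (SE; limma adjusted p = 0.258 and 0.228). The assembly factors COX20 and PET100 had all mutant values below all WT values (5.22% of all genes), at -0.58 ± 0.21 and -0.75 ± 0.25 (SE). COX10, COX11 and COX15 thus had the opposite sign to most of the nuclear subunits of complex IV, but 10 of the 24 assembly genes shared the negative sign. Among those 10 were COX14 (-0.43), COX17 (-0.54), COX19 (-0.41) and CMC1 (-0.89). In the lists for complexes II, III and V, 2 of 3, 7 of 9 and 4 of 5 genes had a positive difference, and so did 4 of 5 genes of electron carriers and later-assigned subunits, cytochrome c (CYCS) among them at 0.67 ± 0.47 (SE).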

How the data were processed

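RNA was measured in 8 left ventricular samples, 4 WT and 4 mutant, grouped by their genotype labels. Per the labels' protocols, TRIzol RNA was selected for poly(A) tails and made into libraries with an NEBNext Ultra kit. The table lists each gene symbol in 1 row. In its 8 sample columns the authors deposited a signal, which the values show to be read counts divided by 1 factor per library, a step that the file headers do not describe; 100% of the values were whole multiples of 1 read (relative tolerance 1e-06), so reads were recovered by division. The authors also deposited a log2 fold change, a score (a test statistic) and the raw and adjusted p-value per gene, per the file headers. DESeq2 and GRCh38 are named in the submitters' processing notes, without a version; of the aligner, the counter and the annotation, the sources used here say nothing, and no coordinates or sequences are printed. Of 14720 rows, 2 named for an annotation source (0.392% to 0.853% of reads) were left out. All 39 member symbols matched the reference gene tables.

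Genes with at least 10 normalized counts in at least 4 libraries were kept (11660), and log2(normalized count + 1) was fitted with limma 3.58.1 (trended, robust prior; R 4.3.3), which understates changes of low genes. Adjusted p under 0.05 was called. The code was tested on counts simulated with the same fixed dispersion for all genes and no outlying library. That test does not show how many true changes would be found in these data. The members, the gene lists and the tests were chosen with earlier results of these data known. Values per library are given for all complex II genes, CYC1, isoform genes, the c subunit genes, ATP5IF1 and the 3 members of each complex with the smallest p; COX8H was added after its values were seen, and so were the role groups. Alternatives were quantile and TMM rescaling, scaling to the total of nuclear reads, pseudocounts of 0.5 and 5, no minimum and a minimum of 100, a plain prior, array weights, edgeR 4.0.16 and DESeq2 1.42.0 on the recovered reads, and leaving out libraries. A planned comparison with protein length was not run, since the reference used here holds no protein table.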

Additional observations from a re-analysis of the deposited data

Results flagged for a closer look

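Among the members, 78 groups of 4 libraries were examined for a library far from the other 3 (by Dixon's 95% critical value, on the log2 scale), and 9 had one. Chance gives about 1 in 20 for independent groups. These groups come from the same 8 libraries and are not independent, so the 9 cannot be read as an excess. In WT replicate 4, COX7A1 stood high at 11618 normalized counts, while SDHA (3731) and UQCRFS1 (2367) stood low. In mutant replicate 1, SDHC stood high at 4299, and SDHA (10289), CYC1 (7204), ATP5F1C (8515), ATP5F1D (4119) and COX8A (793.5) stood low. The 9 values that stood out were thus all from either WT replicate 4 or mutant replicate 1.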

How the results depend on the processing

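In all 20 alternatives 0 members passed the adjusted threshold. Of 21 members described by library (all but COX8H, which was not followed singly), 12 kept the sign of their difference in every alternative. Members with all mutant values below WT numbered 0 after quantile rescaling and 0 after scaling to nuclear reads. COX6A2 became 0.030, 0.029 and 0.074 and COX7A2 0.046, 0.031 and 0.077 (quantile, TMM, nuclear reads). COX6B2 became -0.052 (quantile), -0.067 (edgeR) and -0.12 (DESeq2), and fell under the minimum of 100. SDHB became -0.079 with array weights. The median of all genes moved from 0.12 to -0.02 with edgeR and -0.03 with DESeq2, where 18 and 17 members were above 0.

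Without WT replicates 3 and 4 the medians were -0.27 (all members), 0.20 (complex II) and -0.18 (complex III); 7 members were above 0, and 5 lay below WT throughout. In that setting ATP5MC1 became -0.30, ATP5MC3 -0.077, COX8A -0.24, CYC1 -0.0090, SDHB -0.090 and UQCRFS1 -0.043, and the ratio of COX7A1 to COX7A2 0.34. COX7A2 kept its sign there but moved from -0.01 to -0.85. With each library left out in turn, the complex IV median ran from -0.35 to -0.063, members above 0 from 10 to 25, members above WT throughout from 2 to 8 and below from 2 to 4. Ranges were -0.049 to 0.82 for ATP5MC1, -0.00021 to 0.83 for ATP5MC3, -0.16 to 0.11 for COX6A2, -0.031 to 1.65 for COX6B2, -0.32 to 0.43 for COX7A2, -0.18 to 0.62 for COX8A, -0.072 to 0.63 for UQCRFS1 and -0.045 to 0.33 for the ratio of COX4I2 to COX4I1. Without mutant replicate 4, labelled KCNH3, the medians of complexes II to IV were 0.71, 0.21 and -0.23. The cause of these changes was not tested. No paired analysis was possible because the replicate numbers only name libraries and the labels number the pigs separately. The comparison with protein length was not run. Depth limits COX6B2 and COX7B2 most, with at most 51 and 17 reads per library.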
